A study of Mus musculus with 2 samples.

Results

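Basal keratinocytes are fixed to the basement membrane by hemidesmosomes and anchoring fibrils, and the transcripts of 8 genes that encode parts of these structures (Lama3, Lamb3, Itga6, Itgb4, Col17a1, Dst, Plec and Col7a1) were followed here through the cells of newborn mouse skin. The genes were taken by symbol from the 56694 features of the deposited matrices, and all 8 were present. They had at least 50 UMIs (unique molecular identifiers, each counting 1 captured RNA molecule) over the pair of sums compared in every contrast between the 4 main keratinocyte classes. The rule that chose them used their names and no measured value, but earlier results of these data were known when they were chosen.

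In a hemidesmosome, the integrin α6β4, encoded by Itga6 and Itgb4, spans the basal cell membrane together with the collagen encoded by Col17a1. Inside the cell the plakins encoded by Dst and Plec tie both to keratin filaments, and outside it the integrin binds a laminin that holds the products of Lama3 and Lamb3. Type VII collagen, encoded by Col7a1, forms the anchoring fibrils that run from this laminin into the dermis. Cells that leave the basal layer give up this attachment, and inherited loss of any of these proteins in people causes skin blistering.

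The cells came from epidermal whole mounts of the back skin of mice at postnatal day 2, which were digested with collagenase and then trypsin, and there was 1 library per genotype. The Gli2_EKO mice carried floxed Gli2, a transcription factor of Hedgehog signalling, together with a K14Cre transgene, in which a keratin promoter active in basal keratinocytes drives Cre recombinase, so that the deletion is expected in keratinocytes and in all cells descending from basal ones. The control mice (genotype WT in the labels) were floxed littermates without Cre. Both groups were on a C57BL/6N background, animals were taken without regard to sex, and the number of mice behind a library was not given in the sources used here. With 1 library per genotype no test of a genotype difference was possible, so every interval below is a 95% interval for counting error only and says nothing about the spread between mice.

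The control file held 6326 barcodes with 71021773 UMIs and the Gli2_EKO file 4296 barcodes with 48866478 UMIs, and no barcode was in both. After filtering, 3321 control and 2307 Gli2_EKO keratinocytes fell into 15 clusters, which were named from fixed marker genes that include none of the 8 genes. The 8 genes and the lists of related genes used below were also kept out of the variable genes that made the clusters. The basal-like class (Krt5, Krt14, Krt15 and Trp63 high) held 390 control and 593 Gli2_EKO cells, the suprabasal-like class (Krt1, Krt10 and Lor high) 215 and 309, the outer root sheath-like class (Sox9, Lhx2, Krt17) 1058 and 607, and the hair matrix-like class (Shh, Msx1 and Cldn10 high, with Dcn and Mt2 also among its leading genes) 412 and 156. Although the tissue was labelled epidermis, 862 control and 651 Gli2_EKO cells carried fibroblast markers. Gli2 itself was at 83.0 CPM (UMIs of the gene in 1000000 UMIs of the cells summed; 80.4 to 85.7) in control and 84.6 CPM (81.5 to 87.8) in Gli2_EKO keratinocytes, but the assay reads the polyA end and the deleted exons were not given in the sources used here, so Gli2 could not check the genotype labels.

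The stretches of 250 bases before the transcription start of Col17a1, Itga6 and Itgb4 are shown because these genes encode the proteins that cross the membrane. They were read 5′ to 3′ on the gene's own strand from the GRCm39 genome, at the start of the GENCODE M39 canonical transcript. Capitals mark matches to the motifs named after them.
Col17a1: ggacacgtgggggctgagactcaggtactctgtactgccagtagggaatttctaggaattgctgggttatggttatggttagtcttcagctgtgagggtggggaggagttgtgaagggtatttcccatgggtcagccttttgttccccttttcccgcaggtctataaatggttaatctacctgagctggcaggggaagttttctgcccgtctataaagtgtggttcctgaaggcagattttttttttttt
Itga6: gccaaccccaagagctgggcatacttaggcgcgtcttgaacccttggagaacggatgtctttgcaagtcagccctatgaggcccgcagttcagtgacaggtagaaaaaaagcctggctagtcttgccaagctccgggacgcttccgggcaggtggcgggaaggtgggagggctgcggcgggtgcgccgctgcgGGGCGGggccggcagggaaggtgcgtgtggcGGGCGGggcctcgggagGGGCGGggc
Itgb4: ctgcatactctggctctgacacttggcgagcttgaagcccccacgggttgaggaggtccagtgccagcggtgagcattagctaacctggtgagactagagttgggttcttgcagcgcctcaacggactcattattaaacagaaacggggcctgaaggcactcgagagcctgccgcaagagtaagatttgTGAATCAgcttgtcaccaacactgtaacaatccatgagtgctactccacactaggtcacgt
The Col17a1 stretch lies at chr19:47680534-47680783 on the minus strand, the Itga6 stretch at chr2:71616969-71617218 on the plus strand and the Itgb4 stretch at chr11:115865083-115865332 on the plus strand. Both strands were searched for a loose AP-1-like pattern, TGANTCA, in which N is any base. It found 1 match before Itgb4 (TGAATCA), at position -61 from the start, and 1 before Dst. So 2 of the 8 genes had a match to this pattern, while 6.18% of 21757 promoters of the same length had one. The GC box GGGCGG was found before 4 of the 8 (Itga6, Col7a1, Dst and Plec) and in 36.3% of all promoters, and Itga6 had 3 matches. A GLI site (GACCACCCA), the sequence that proteins of the Gli family bind, was found before none of the 8 and in 0.188% of all promoters, which says only that these letters were not in the windows. A match is a description of the sequence and was not tested for binding. For each gene only the stretch before the start of its canonical transcript was searched, which need not be the start used in these cells.

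**Figure D1:**
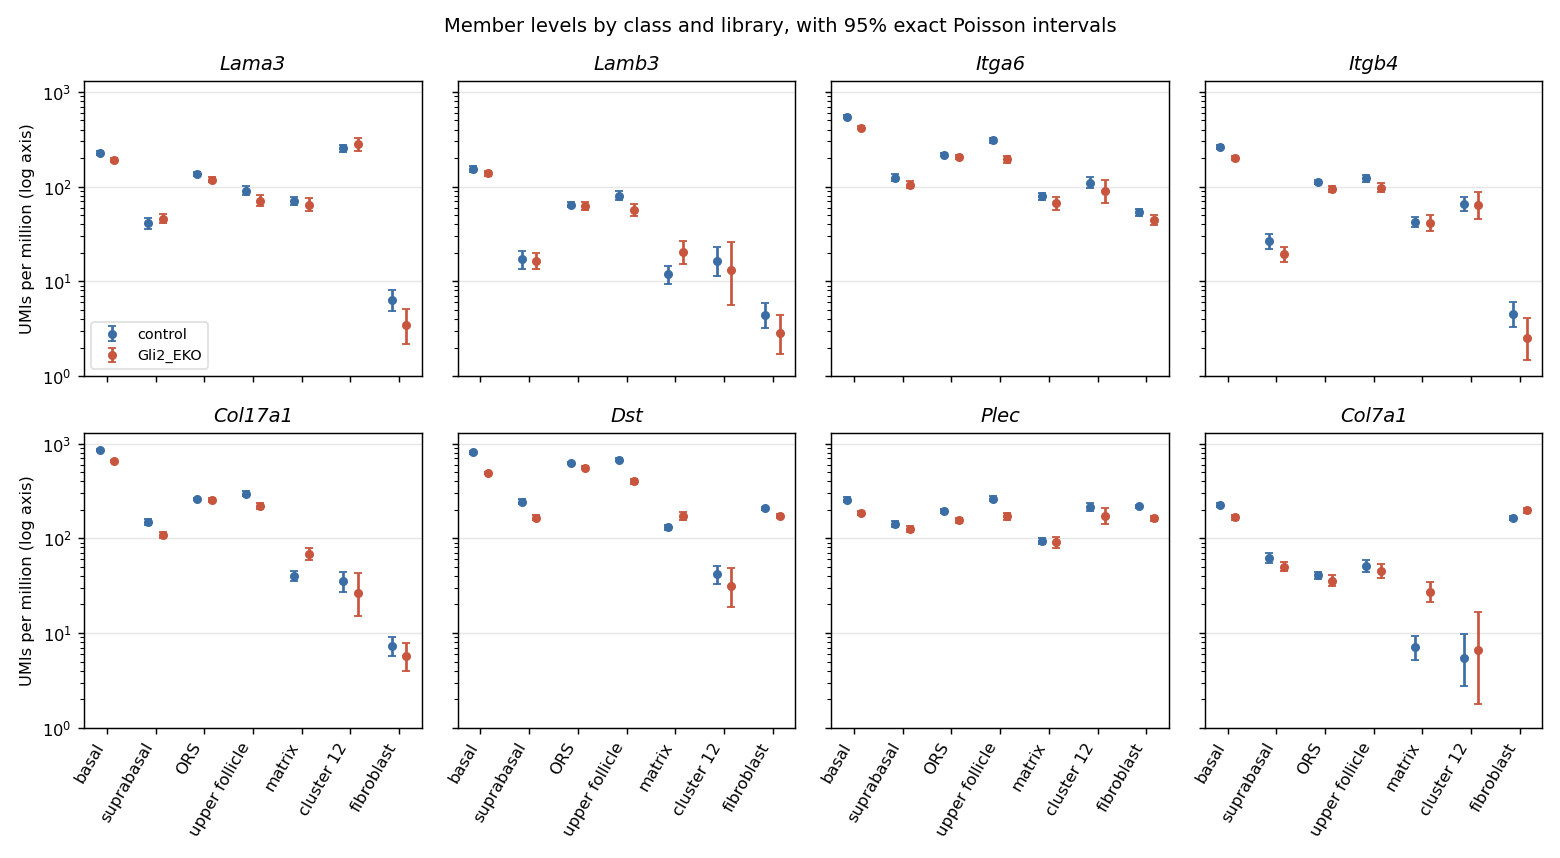
Level of each of the 8 genes (CPM, log axis) in 7 classes of cells, for the control and the Gli2_EKO library, with 95% Poisson intervals for counting error. Among the basal-like, suprabasal-like, outer root sheath-like and matrix-like classes, all 8 genes were highest in basal-like cells in the control and all but Dst in Gli2_EKO, and Lama3 was higher still in the unnamed cluster 12.

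The laminin chain genes Lama3 and Lamb3 encode subunits of the same secreted protein, but their transcripts were spread over the follicle differently. Lamb3, the beta chain gene (chr1:192890007-193027705, plus strand, GRCm39), was at 154 CPM (144 to 164) in control and 138 CPM (130 to 146) in Gli2_EKO basal-like cells. Its level in outer root sheath-like cells was 41.9% of the basal-like level in the control library and 44.9% in the Gli2_EKO library, and in suprabasal-like cells 11.1% and 11.9%. In matrix-like cells Lamb3 was at 11.8 CPM (9.4 to 14.7) in the control and 20.3 CPM (15.2 to 26.6) in the Gli2_EKO library. Among these 4 classes Lamb3 was thus highest in basal-like and next in outer root sheath-like cells in both libraries, with no overlap of the intervals, while the suprabasal-like and matrix-like intervals overlapped each other.

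Lama3, the alpha chain that carries the integrin-binding end of the laminin, was at 225 CPM (213 to 237) in control and 191 CPM (182 to 200) in Gli2_EKO basal-like cells. Suprabasal-like cells held 18.2% and 24.1% of that level and outer root sheath-like cells 60.3% and 62.0%, and matrix-like cells were at 70.2 CPM (64.1 to 76.7) and 64.5 CPM (55.1 to 75.0). The highest Lama3 level among keratinocytes lay outside the basal layer, in cluster 12, at 254 CPM (232 to 277) in the control and 280 CPM (239 to 325) in the Gli2_EKO library. The control interval overlapped that of basal-like cells and the Gli2_EKO interval did not. In the same cluster Lamb3 was at 16.5 CPM (11.4 to 23.2) and 13.1 CPM (5.65 to 25.8), so the alpha chain transcript stood high there without that of the beta chain.

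Cluster 12 was led by hair shaft and follicle lineage genes, but only 2 hair shaft markers were found in at least 10% of its cells, and it was left unnamed. Its cells were divided by whether they held more UMIs of hair shaft markers (Krt35, Krt86, Krt31, S100a3) or of the Foxq1 lineage markers (Foxq1, Krt75, Krt23, Krt90, Aldh1a3), a division made after the Lama3 level was seen. Lama3 was at 397 CPM (355 to 443) in the 82 control cells with more lineage markers and at 134 CPM (114 to 157) in the 105 with more hair shaft markers. In the Gli2_EKO library the values were 565 CPM (441 to 714) in 20 cells and 176 CPM (140 to 219) in 55 cells. A further 9 control and 5 Gli2_EKO cells held equal UMIs of both lists, with Lama3 at 729 CPM (499 to 1029) and 739 CPM (451 to 1141). Both libraries therefore had more Lama3 on the lineage side than on the hair shaft side, and the few cells on neither side had the highest values. Itgb4 was also higher on the lineage side, at 132 CPM (108 to 159) against 18.3 CPM (11.3 to 28.0) on the hair shaft side in the control.

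The integrin genes Itga6 and Itgb4, whose products pair to form the hemidesmosome receptor, were both low in the differentiated layers. Itga6 (chr2:71575960-71689757, plus strand) was at 546 CPM (528 to 565) in control and 417 CPM (404 to 431) in Gli2_EKO basal-like cells, and at 124 CPM (115 to 134) and 105 CPM (97.3 to 113) in suprabasal-like cells. Itgb4 (chr11:115865333-115899239, plus strand) was at 264 CPM (251 to 277) and 202 CPM (192 to 211) in basal-like cells, and at 26.4 CPM (22.1 to 31.3) and 19.4 CPM (16.2 to 23.0) in suprabasal-like cells. In suprabasal-like cells Itgb4 therefore stood at 10.0% and 9.6% of its basal-like level, the lowest share of any of the 8 genes there and next to that of Lamb3, and Itga6 at 22.8% and 25.2%.

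In outer root sheath-like cells, the outermost layer of the follicle, which also rests on a basement membrane, both integrin genes kept a larger share. Itga6 was at 39.6% of its basal-like level in the control and 49.2% in the Gli2_EKO library, and Itgb4 at 42.5% and 46.6%. In matrix-like cells, the dividing cells at the base of the follicle, Itga6 was at 79.4 CPM (72.9 to 86.3) and 66.8 CPM (57.2 to 77.5) and Itgb4 at 42.1 CPM (37.4 to 47.2) and 41.5 CPM (34.0 to 50.1). For Itgb4 this put matrix-like above suprabasal-like cells in both libraries, with no overlap of the intervals, whereas for Itga6 the suprabasal-like cells were higher. Itga6 also pairs with the beta chain Itgb1 in cells without hemidesmosomes, and outside the keratinocytes it was at 449 CPM (373 to 536) in the 23 control endothelial cells and 214 CPM (127 to 338) in the 8 Gli2_EKO ones. Itgb4 in those cells was at 14.7 CPM (4.01 to 37.7) and 47.5 CPM (12.9 to 122).

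Col17a1, the gene of the transmembrane collagen of the hemidesmosome (chr19:47634783-47680533, minus strand), was at 853 CPM (830 to 877) in control and 657 CPM (640 to 674) in Gli2_EKO basal-like cells. It was at 260 CPM (251 to 269) and 252 CPM (241 to 264) in outer root sheath-like cells, 148 CPM (137 to 159) and 109 CPM (101 to 117) in suprabasal-like cells, and 39.9 CPM (35.4 to 44.9) and 67.9 CPM (58.3 to 78.7) in matrix-like cells. The 4 levels did not overlap within either library. Of the Col17a1 UMIs of all keratinocytes, 46.8% in the control and 61.4% in the Gli2_EKO library came from basal-like cells, which made up 11.7% and 25.7% of the keratinocytes. The outer root sheath-like class was not uniform, since its cluster 10 was at 755 CPM in the control and 612 CPM in the Gli2_EKO library, while its other 3 clusters lay between 126 and 266 CPM in the control.

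The plakin genes Dst and Plec, which encode the linkers to the cytoskeleton, had the smallest parts of their keratinocyte UMIs in basal-like cells, 24.6% in the control and 35.8% in the Gli2_EKO library for Dst and 19.1% and 32.8% for Plec. Dst (chr1:33946918-34347742, plus strand) was at 806 CPM (783 to 828) in control and 487 CPM (473 to 502) in Gli2_EKO basal-like cells, and at 629 CPM (616 to 643) and 557 CPM (539 to 574) in outer root sheath-like cells. The order of these classes thus differed between the libraries, with basal-like cells higher in the control and outer root sheath-like cells higher in Gli2_EKO, at 78.1% and 114% of the basal-like level. Dst was at 244 CPM (230 to 258) and 165 CPM (155 to 175) in suprabasal-like cells and at 130 CPM (122 to 139) and 171 CPM (156 to 188) in matrix-like cells. Dst has other known isoforms in nerve and muscle, which a count per gene cannot separate, and its transcripts were also high in melanocytes, at 794 CPM (745 to 846) and 674 CPM (619 to 733).

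Plec, which encodes plectin, a linker found in many cell types (chr15:76055174-76116774, minus strand), showed the smallest range over the clusters. It was at 257 CPM (244 to 270) in control and 187 CPM (178 to 196) in Gli2_EKO basal-like cells and was still at 54.7% and 66.6% of that in suprabasal-like cells and 75.6% and 83.3% in outer root sheath-like cells. In matrix-like cells it was at 93.1 CPM (86.1 to 101) and 91.0 CPM (79.8 to 103). Its control levels in upper follicle-like cells (262 CPM, 247 to 278) and companion-like cells (243 CPM, 222 to 264) overlapped that of basal-like cells. Immune cells, which have no hemidesmosomes, were at 222 CPM (193 to 254) and 117 CPM (87.3 to 152), so Plec by itself did not separate basal cells from the rest.

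Col7a1, the gene of the anchoring fibril collagen (chr9:108782647-108813943, plus strand), was at 226 CPM (214 to 238) in control and 166 CPM (158 to 175) in Gli2_EKO basal-like cells, and was the gene with the largest part of its keratinocyte UMIs in that class, 53.4% and 62.9%. It differed from the other genes in being lower in outer root sheath-like cells (40.6 CPM, 37.2 to 44.2, and 35.8 CPM, 31.5 to 40.5) than in suprabasal-like cells (61.9 CPM, 55.2 to 69.2, and 50.1 CPM, 44.8 to 55.8). In matrix-like cells it was at 7.06 CPM (5.23 to 9.34) in the control, which rests on 49 UMIs, and at 27.3 CPM (21.3 to 34.4) in the Gli2_EKO library. Fibroblasts, another known source of type VII collagen, were at 163 CPM (155 to 171) and 197 CPM (186 to 208), above basal-like cells only in the Gli2_EKO library. Lama3, Lamb3, Itgb4 and Col17a1 were between 2.54 and 7.28 CPM in the same fibroblasts, so Col7a1 was the 1 extracellular component among the 8 with a dermal level near the epidermal one.

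The genes were then counted by class. Compared with basal-like cells, 7 of the 8 were at least 2-fold lower in suprabasal-like cells in either library, all but Plec, where 17.9% of 10322 genes in the control and 20.2% of 10882 in the Gli2_EKO library were that much lower. The median log2 ratio of the 8 was -2.29 and -2.02, beside -0.23 and -0.29 over all genes. All 8 were at least 2-fold lower in matrix-like cells, with a median log2 ratio of -2.71 and -2.44, where 12.4% of all genes were that much lower in each library and the median of all genes was 0.22 and 0.13. In outer root sheath-like cells 5 of the 8 (Lamb3, Itga6, Itgb4, Col17a1 and Col7a1) were at least 2-fold lower and 0 at least 2-fold higher, where 21.6% of all genes in the control and 19.9% in the Gli2_EKO library passed that fold in either direction. In the Gli2_EKO library Itga6 was close to this limit in outer root sheath-like cells, with a log2 ratio of -1.02, and Plec in matrix-like cells, with -1.04. In the Gli2_EKO library the count in outer root sheath-like cells was 3 without the basal-like cluster 11 described below and 2 when no gene was left out of the variable genes.

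**Figure D2:**
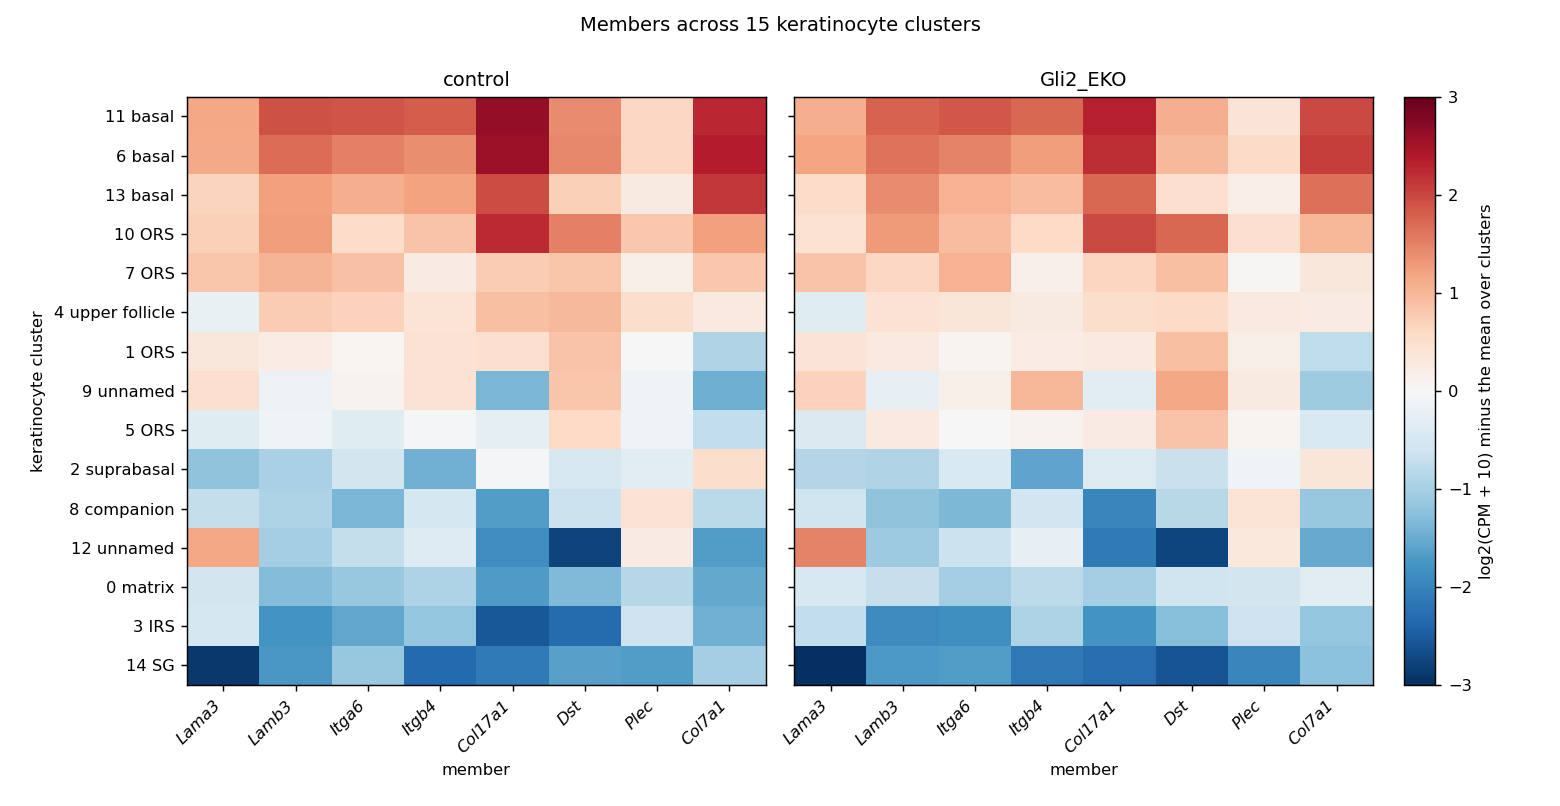
Heat map of the 8 genes over the 15 keratinocyte clusters of each library, as log2(CPM + 10) minus the gene's mean over the clusters. Clusters 6, 11 and 13 (basal-like) and cluster 10 (outer root sheath-like) are high for most genes, and cluster 12 is high for Lama3 and low for Lamb3, Dst and Col7a1.

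Across the 15 clusters most of the 8 genes varied together. Pearson's r between log2(CPM + 10) of a gene and the mean of the other 7 was 0.990 in the control and 0.963 in the Gli2_EKO library for Lamb3, 0.946 and 0.956 for Itga6, 0.942 and 0.940 for Col17a1, and 0.917 and 0.891 for Itgb4. It was lower for Dst (0.825 and 0.807), Col7a1 (0.818 and 0.783), Plec (0.776 and 0.718) and Lama3 (0.673 in both). Clusters of a library share its preparation and depth, and these values describe the 15 clusters without a test. The core of laminin beta chain, integrin and transmembrane collagen thus peaked in the same cluster, cluster 11, in both libraries, and Lama3 peaked in cluster 12. Among 8970 other genes, those most like the mean of the 8 in the control were Ppp1r14a (r = 0.945), Tspo (0.937), Pitpnm3 (0.930), Prkd2 (0.925) and Krt15 (0.924), the last a basal keratin that was also a class marker, followed by Sdk2, Ggta1, S100a10, Abcc5 and Cav2 at 0.906 to 0.924.

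Genes that work beside the 8 at the basal membrane did not share all of this pattern. Itgb1 and Itga3, the chains of the other laminin-binding integrin of basal keratinocytes, had log2 ratios of 0.10 (0.03 to 0.17) and -0.09 (-0.25 to 0.08) between outer root sheath-like and basal-like cells in the control. The tetraspanin gene Cd151 and the integrin activator gene Fermt1 (kindlin-1) had log2 ratios of 0.40 (0.25 to 0.57) and 0.46 (0.35 to 0.58). Of these 4 partners, 3 in the control (all but Cd151) and 4 in the Gli2_EKO library were at least 2-fold lower in suprabasal-like cells, 0 passed that fold in outer root sheath-like cells, and 1 (Itga3) was at least 2-fold lower in matrix-like cells. The outer root sheath-like class therefore kept the general integrin genes at about the basal level and had less of the hemidesmosome receptor.

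Many other structural genes of the basement membrane were higher in the outer root sheath-like than in the basal-like class. Of 20 such genes, 18 had at least 50 UMIs in the comparison of outer root sheath-like with basal-like cells, and 10 in the control and 8 in the Gli2_EKO library were at least 2-fold higher in the outer root sheath-like class, with 0 and 1 at least 2-fold lower. Over all genes, 1835 of 12007 in the control and 1475 of 11405 in the Gli2_EKO library were at least 2-fold higher there. The intervals of 12 and 11 of the 18 genes lay above 0, and those of 5 and 3 below 0. The type IV collagen gene Col4a1 had log2 ratios of 3.11 and 2.46 there, Lamb1 3.06 and 3.18, Lamc1 1.34 and 1.43, and Lama5 1.53 and 1.29. In matrix-like cells 3 of 15 were at least 2-fold higher and 5 lower in the control, and 2 higher and 4 lower in the Gli2_EKO library. In suprabasal-like cells 12 of 15 in the control and 12 of 14 in the Gli2_EKO library were at least 2-fold lower, and 0 were higher. In the outer root sheath-like cells many, but not all, of these basement membrane genes were thus at higher levels than in basal-like cells. Of the 8 hemidesmosome and anchoring genes, 5 were at least 2-fold lower there.

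**Figure D3:**
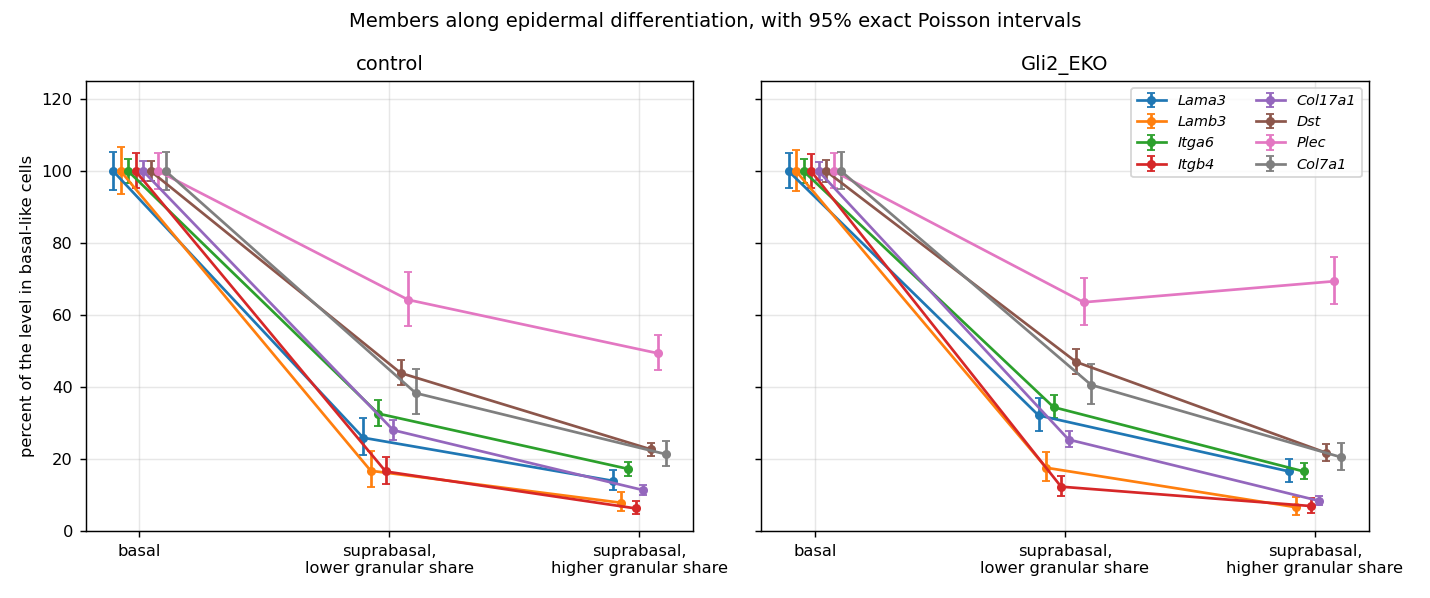
Level of each of the 8 genes as a percentage of its basal-like level, in basal-like cells and in suprabasal-like cells with a lower or a higher share of granular-layer UMIs, for both libraries. All genes were lower at each step in both libraries except Plec in Gli2_EKO, and Plec ended at 49.4% in the control and 69.4% in the Gli2_EKO library.

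The suprabasal-like cells were divided at 1 value of their share of granular-layer UMIs (Lor, Flg, Flg2, Ivl, Hrnr, Lce1a1 and Lce1c), giving 91 control and 171 Gli2_EKO cells below it and 124 and 138 above, with 10 cells near the dividing value. These are ranges of a score and not cell types. Col17a1 was at 28.1% of its basal-like level in the lower and 11.5% in the higher range in the control, and at 25.5% and 8.5% in the Gli2_EKO library. Itgb4 went from 16.6% to 6.4% in the control and from 12.4% to 7.0% in Gli2_EKO. The log2 ratio of the higher to the lower range was below 0, with its interval, for all 8 genes in the control, from -0.38 (-0.60 to -0.16) for Plec to -1.38 (-1.91 to -0.87) for Itgb4. In the Gli2_EKO library the same held for all but Plec, at 0.13 (-0.07 to 0.33). The higher ranges were not alike in the libraries, since Lor, the loricrin gene of the granular layer, was at 7921 CPM in the control and 484 CPM in Gli2_EKO, and the part of this in the values above was not tested. More of the basal-like level of Col7a1 and Dst than of the integrin beta chain was left in the higher range of the control, 21.4% and 22.8%.

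Single cells were compared after each was thinned to the same number of UMIs. At 2000 UMIs, 77.4% of control basal-like cells (72.9% to 81.4%) had a UMI of Col17a1, 64.8% (59.8% to 69.5%) of Itga6 and 39.6% (34.7% to 44.6%) of Itgb4, and before thinning 96.4%, 97.9% and 89.5%. In the Gli2_EKO library the thinned shares were 71.0% (67.2% to 74.6%), 56.1% (52.0% to 60.2%) and 32.5% (28.8% to 36.5%). In the 92 control immune cells, which form no hemidesmosomes, the shares were 4.3%, 2.2% and 1.1%, at a median depth before thinning of 9995 UMIs against 14786 in basal-like cells. For these genes the basal-like shares thus stood far above those of immune cells, and the level of free RNA was not measured. For Dst and Plec the immune cells were at 28.3% and 31.5% against 79.2% and 38.8% in basal-like cells, so at this depth a UMI of Plec hardly set basal-like cells apart.

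At 5000 UMIs, 64.0% of control basal-like cells (58.8% to 68.9%) had UMIs of at least 6 of the 8 genes, with a median of 6. The share was 20.02% in outer root sheath-like, 5.69% in suprabasal-like and 1.06% in matrix-like cells, with medians of 4, 2 and 2. In the Gli2_EKO library it was 49.0% (44.8% to 53.2%) in basal-like cells, with a median of 5, and 14.8%, 4.41% and 0.68% in the others. Transcripts of most of the set were thus found at once in many basal-like and in few matrix-like cells.

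The basal-like class was made of cluster 6, cluster 13, which was led by H19 and histone genes, and cluster 11, which was led by Atf3, Fosl1 and Ccn1. Summed over the 11 genes of a list for the stress of dissociation, cluster 11 was at 16038 CPM in the control and 17389 CPM in the Gli2_EKO library, against 6187 and 6012 CPM in cluster 6. Compared with the other basal-like clusters, Itga6 was higher in cluster 11 by a log2 ratio of 0.57 (0.47 to 0.68) in the control and 0.59 (0.48 to 0.69) in Gli2_EKO, Itgb4 by 0.53 (0.38 to 0.68) and 0.64 (0.49 to 0.79), and Lamb3 by 0.47 (0.27 to 0.67) and 0.27 (0.08 to 0.46). For Col7a1 the values were 0.03 (-0.15 to 0.19) and 0.10 (-0.08 to 0.28). The part of stress genes in these differences was not tested, and genotype values are given below with and without cluster 11.

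**Figure D4:**
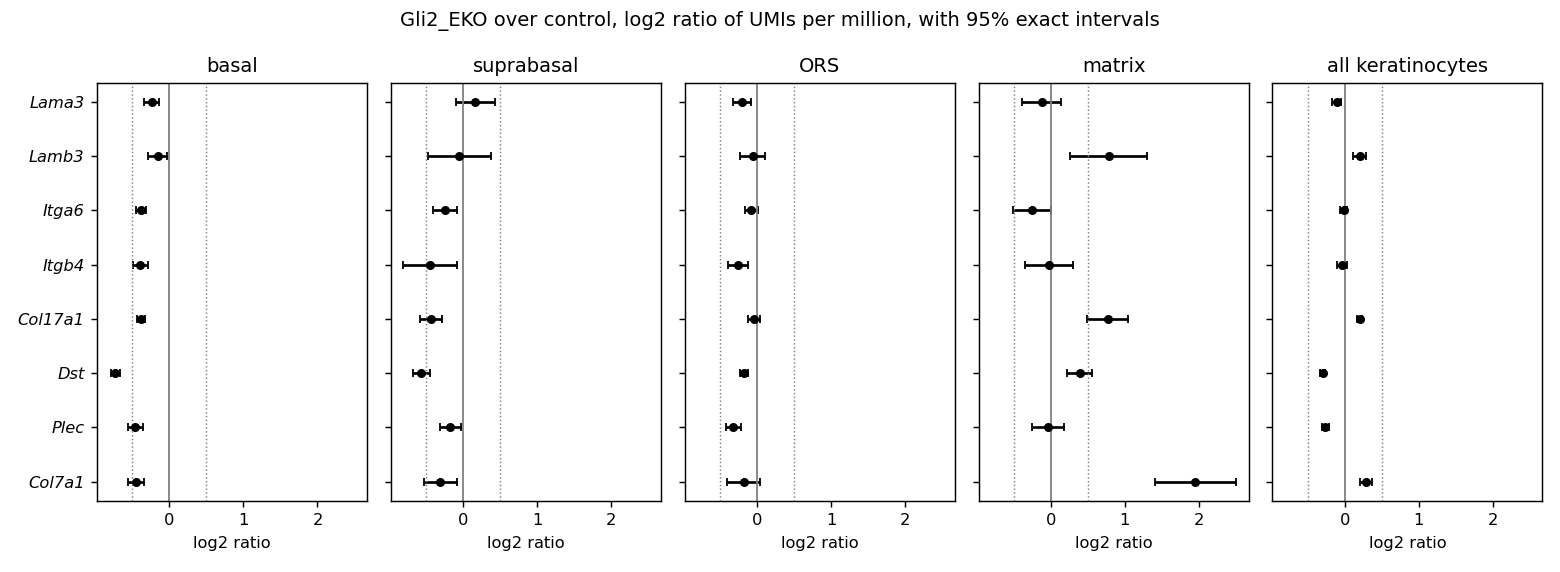
Log2 ratio of the Gli2_EKO to the control level of each of the 8 genes in basal-like, suprabasal-like, outer root sheath-like and matrix-like cells and in all keratinocytes, with 95% intervals for counting error and dotted lines at -0.5 and 0.5. All 8 lie below 0 in basal-like cells, and Col7a1, Lamb3, Col17a1 and Dst lie above 0 in matrix-like cells.

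Whether the genes differed between the genotypes was examined within each class. In basal-like cells all 8 were lower in the Gli2_EKO library and no interval reached 0, and the median log2 ratio of the 8 was -0.39, beside -0.03 over all genes. Dst had the lowest log2 ratio, -0.73 (-0.78 to -0.67), followed by Plec at -0.46 (-0.56 to -0.36), Col7a1 at -0.44 (-0.55 to -0.34), Itgb4 at -0.39 (-0.49 to -0.29), Itga6 at -0.39 (-0.46 to -0.32) and Col17a1 at -0.38 (-0.43 to -0.32). The laminin genes were closest to 0, with Lama3 at -0.24 (-0.34 to -0.13) and Lamb3 at -0.16 (-0.28 to -0.03). Only Dst, 1 of the 8, was beyond 0.5 in either direction, where 11.7% of 10913 genes were. Of all genes, 53.8% were below 0 in these cells.

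The direction was the same without cluster 11, where Dst was at -0.72 (-0.79 to -0.65) and Itgb4 at -0.39 (-0.51 to -0.27), while Lamb3, at -0.08 (-0.22 to 0.08), was no longer clear of 0. The 4 partners were compared in the whole basal-like class, cluster 11 included. There Itgb1 (-0.27, -0.35 to -0.18) had an interval below 0, and Cd151, Itga3 and Fermt1 had intervals that reached across 0. By cluster, Itgb1 was at -0.40 (-0.55 to -0.26) in cluster 11. It was at -0.14 in both cluster 6 (-0.28 to 0.01) and cluster 13 (-0.29 to 0.01), where the intervals reached across 0. Within cluster 13 by itself Lamb3 was at 0.06. The summed stress list was at 9407 CPM in control and 8754 CPM in Gli2_EKO basal-like cells. This sum mixes directions, since 8 of the 11 stress genes had intervals below 0 and 3 above 0. Their median log2 ratio was -0.38, and they ranged from -1.49 (-1.71 to -1.27) for Fosb to 0.48 (0.44 to 0.51) for Hspa1b. The part of stress genes in the genotype values was not tested. Mitochondrial transcripts were at a median of 2.71% and 2.53% of a cell's UMIs, and median depth was 14786 and 13798 UMIs.

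**Figure D5:**
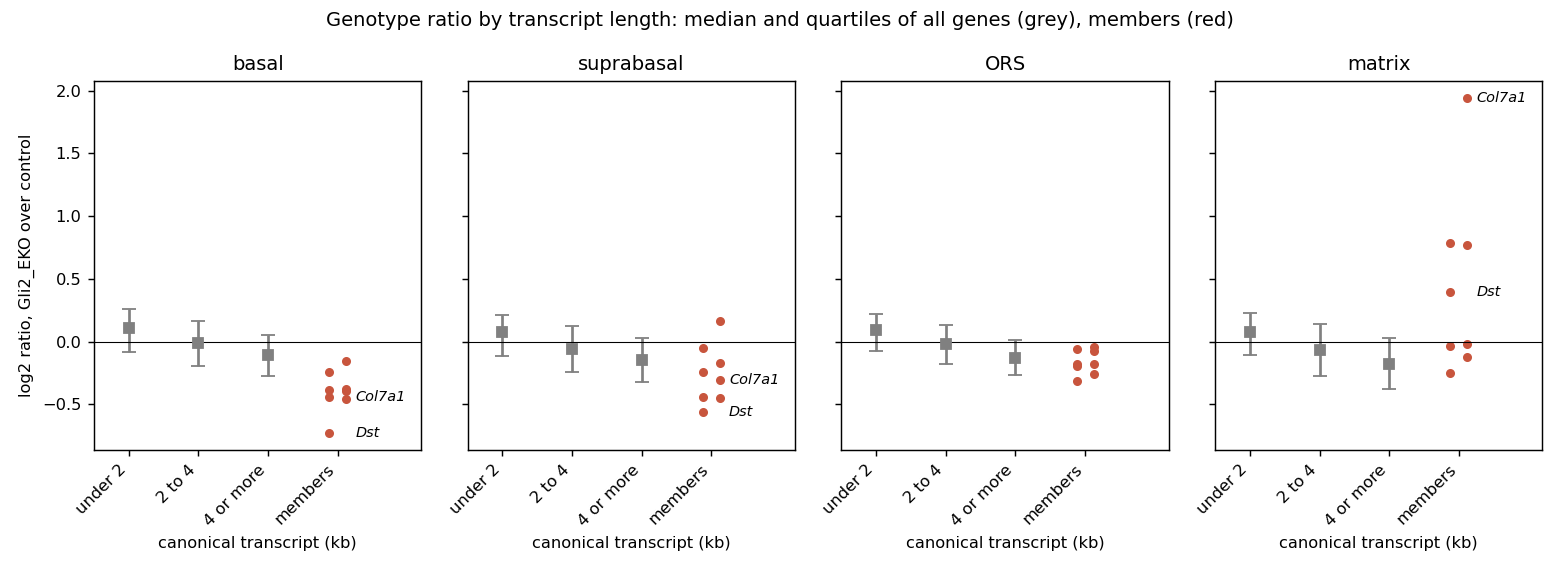
Median log2 ratio of Gli2_EKO to control, with quartiles, of all genes grouped by the length of the canonical transcript (under 2 kb, 2 to 4 kb, 4 kb or more) in 4 classes, with the 8 genes in red. The medians go down with length in each class, and in basal-like cells the 8 genes, which all belong to the longest group, lie below its median of -0.11.

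The length of the transcript moved with this comparison. The canonical transcripts of the 8 genes were all over 4 kb, from 4.41 kb for Itga6 to 23.2 kb for Dst, and the genes spanned from 31.3 kb (Col7a1) to 401 kb (Dst). In basal-like cells the median log2 ratio of all genes was 0.11 for transcripts under 2 kb, -0.01 for 2 to 4 kb and -0.11 for 4 kb or more, and in the last group the quartiles were -0.27 and 0.05 and 68.3% of the genes were below 0. Of the 8 genes, 6 lay below the lower quartile of their own length group, and Lama3 (-0.24) and Lamb3 (-0.16) lay within the quartiles. The same order of the length groups was seen in the other classes, where transcripts of 4 kb or more had medians of -0.14 in suprabasal-like, -0.13 in outer root sheath-like and -0.18 in matrix-like cells. The part of length in the values of the 8 genes was not tested. The canonical transcript of a gene need not be the one made in these cells.

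In suprabasal-like cells 6 of the 8 had intervals below 0, from Dst at -0.56 (-0.68 to -0.44) to Plec at -0.17 (-0.32 to -0.02), and 7 of the 8 had values below 0, as had 58.7% of all genes and 71.5% of those with transcripts of 4 kb or more. Dst was the 1 gene of the 8 beyond 0.5, where 13.2% of all genes were (the count was 2 without doublet removal and 0 at a clustering resolution of 0.8), and Lama3, at 0.16 (-0.10 to 0.43), was the 1 with a value above 0. In outer root sheath-like cells the values lay between -0.32 (-0.42 to -0.21, Plec) and -0.04 (-0.13 to 0.04, Col17a1). All 8 were thus below 0, as were 56.0% of all genes and 72.7% of those with transcripts of 4 kb or more. The intervals of Lama3, Itgb4, Dst and Plec were below 0, and how many of all genes had such intervals was not counted. Beyond 0.5 were 0 of the 8, where 9.6% of all genes were. In upper follicle-like cells, the infundibulum and isthmus of the follicle, Dst had a log2 ratio of -0.76 (-0.86 to -0.67), Itga6 of -0.66 (-0.80 to -0.52) and Plec of -0.62 (-0.77 to -0.47). Dst was therefore lower in the Gli2_EKO library in each of these classes.

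In matrix-like cells several genes were higher in the Gli2_EKO library, unlike in the basal-like, suprabasal-like and outer root sheath-like classes taken whole. The outer root sheath-like clusters were not alike. In its cluster 5 Col17a1 was at 0.49 (0.31 to 0.68) and Lamb3 at 0.39 (0.04 to 0.73). In its clusters 1, 7 and 10 Col17a1 was at -0.28, -0.16 and -0.30, and Lamb3 at -0.05, -0.58 and -0.12. Col7a1 had a log2 ratio of 1.94 (1.40 to 2.50) between the Gli2_EKO and the control library, Lamb3 of 0.79 (0.26 to 1.30) and Col17a1 of 0.77 (0.49 to 1.04), so 3 of the 8 were beyond 0.5, where 16.5% of all genes were. Dst was at 0.39 (0.23 to 0.56), and Lama3, Itga6, Itgb4 and Plec were between -0.25 and -0.02. These are differences at low levels, since Col17a1 in Gli2_EKO matrix-like cells was still at 10.3% of the basal-like level. Without the 5 cells with the most UMIs of Col17a1 in each library, which held 11.6% and 26.6% of them, Col17a1 was at 35.8 CPM in the control and 52.2 CPM in Gli2_EKO, and Col7a1 without its top 5 cells was at 5.43 and 21.4 CPM.

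Some markers of basal cells, among them the keratin genes, were also higher in the Gli2_EKO matrix-like cells. The 7 basal-like markers summed to 1527 CPM in the control and 3085 CPM in the Gli2_EKO library, with 0 of the 7 at 0. Krt14 was higher by a log2 ratio of 1.57 (1.49 to 1.64), Krt15 by 0.93 (0.76 to 1.10) and Krt5 by 0.89 (0.83 to 0.96). The basal transcription factor gene Trp63 had a ratio of 0.08 (-0.04 to 0.20), Thbs1 of 0.34 (-0.09 to 0.75) and Dll1 of 0.05 (-0.91 to 0.88). Ly6a, at 1.66 (0.34 to 3.05), rests on 10 control and 12 Gli2_EKO UMIs. Without Krt5 and Krt14 the other 5 markers summed to 411 and 527 CPM, of which Krt15 was 100 and 190 CPM. Of 3 markers of differentiating epidermis, Krtdap had a log2 ratio of 1.80 (1.54 to 2.07), Krt1 of 0.80 (0.48 to 1.10) and Krt10 of -0.10 (-0.35 to 0.13). The part of RNA or cells of the epidermis in the matrix-like values was not tested. In inner root sheath-like cells Krt14 was higher by 2.07 (1.93 to 2.21), while Trp63 was at -0.41 (-0.58 to -0.24). The 5 markers without Krt5 and Krt14 summed to 445 CPM in the control and 413 CPM in Gli2_EKO. Col17a1 had a log2 ratio of 1.00 (0.45 to 1.54) there, with 74.5% of its 55 Gli2_EKO UMIs in 5 cells. Without the top 5 cells of each library it was at 12.1 CPM in the control and 9.98 CPM in Gli2_EKO. Dst was at 0.75 (0.45 to 1.05), while Itga6 was at -0.75 (-1.22 to -0.31), Lama3 at -0.46 (-0.84 to -0.10) and Plec at -0.38 (-0.68 to -0.10). In the unnamed cluster 9 Col17a1 was at 1.11 (0.69 to 1.52).

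Over all keratinocytes the genes went in different directions and 0 of the 8 were beyond 0.5, where 18.4% of all genes were. Col7a1 had a log2 ratio of 0.29 (0.21 to 0.37), Lamb3 of 0.20 (0.12 to 0.29) and Col17a1 of 0.20 (0.16 to 0.24), while Dst was at -0.29 (-0.33 to -0.26), Plec at -0.26 (-0.31 to -0.21) and Lama3 at -0.11 (-0.17 to -0.05). These sums mix the level within a class with the share of cells in it, since the basal-like class made up 11.7% of control and 25.7% of Gli2_EKO keratinocytes. With the Gli2_EKO clusters weighted to the UMI shares they had in the control, all 8 were lower in Gli2_EKO, Col7a1 at -0.24, Col17a1 at -0.22, Lamb3 at -0.14 and Dst at -0.35. The weighting was not applied to all genes, so the share of all genes that would be lower is not known. Of the partners, Itga3 was at -0.18, Itgb1 at -0.16, Fermt1 at -0.08 and Cd151 at 0.02 after it. Over all keratinocytes a scaling to the median of ratios would raise each log2 ratio by 0.13, which puts Lama3 at 0.02 and leaves 2 of the 8, Dst and Plec, below 0.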

How the data were processed

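Single-cell RNA was measured in 1 control and 1 Gli2_EKO library. RNA was captured at its polyA end in droplets. The authors aligned and counted the reads with Cell Ranger 9.0.1 on the GRCm39 build with a GENCODE annotation, and the deposited values are raw UMI counts per gene and barcode, filtered to called cells. Whether intronic reads were counted is not given in the sources used here. All CPM, percent and log2 values were computed here from the deposited counts. The 8 genes and the gene lists were chosen with earlier results of these data known.

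The limits of the study were applied, which keep cells that have between 1000 and 8000 genes and less than 15% of UMIs from mitochondria (4844 control and 3362 Gli2_EKO). Its doublet caller, scDblFinder, was not run here. Scrublet in Scanpy 1.11.5 scored doublets, and because its automatic threshold marked 260 control cells but 5 Gli2_EKO cells, the 8% of cells with the highest scores were removed from each library, leaving 4456 and 3093. Clustering used Seurat 5.3.0 (R 4.3.3) with 2000 variable genes, 20 principal components, the published Harmony algorithm written anew, and Louvain clustering at resolution 0.5, first over all cells and then over keratinocytes. In both rounds 33 genes (the 8 genes, 5 partners and 20 basement membrane genes) were left out of the variable genes. Results are given for 4 partners, and the other is not reported here. A cluster was named where its marker score, the log2 CPM of the markers relative to the average cluster, was at least 1 with at least 3 markers in 10% of its cells. In addition, no other marker list could have more genes among the 10 leading genes of the cluster. Clusters that did not meet this rule were left unnamed (clusters 9 and 12). A first-round cluster that mixed endothelial and Schwann cells was divided by marker UMIs after it was seen. Krt85, a planned hair shaft marker, was not analysed here.

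UMIs were summed per class and library (Python 3.11.15, NumPy 2.4.6, SciPy 1.17.1). Levels carry exact Poisson intervals, shares of cells Clopper-Pearson intervals and ratios exact conditional binomial intervals, all at 95%, with 0.5 UMIs added to both sums for a log2 ratio. These cover counting error only. A gene entered a comparison with at least 50 UMIs over both sums and was counted past a 2-fold ratio between classes or a log2 ratio of 0.5 between libraries. The interval script was tested on simulated data. Genes named are the 8, their partners, the basement membrane and stress lists, the class markers, the leading genes of clusters and the 10 genes most like the mean of the 8 over control clusters, among genes with at least 500 UMIs. Positions and promoters come from GENCODE M39, a later release than the authors used. Alternatives were doublet handling, a mitochondrial limit of 10%, resolutions of 0.3 and 0.8, 30 components, no integration, no genes left out, classes by single-cell score, scaling to the median of ratios, no UMI minimum, weighting to control cluster shares and other thinning depths, and, chosen after seeing the data, basal-like cells without cluster 11.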

Additional observations from a re-analysis of the deposited data

Results flagged for a closer look

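Within the 4 main classes, and judged by the counting intervals, 4 of the 8 genes differed between the libraries in opposite directions in different classes. How many of all genes did so was not counted, so this count has no background to set it against. Each such pair is 1 library against 1, so the difference between the classes was not tested. Outside the main classes, Itgb4 was at 0.42 (0.10 to 0.73) in the unnamed cluster 9, against -0.39 (-0.49 to -0.29) in basal-like cells. For Col7a1 the log2 ratio of Gli2_EKO to control in matrix-like cells exceeded that in basal-like cells by 2.39 and that in suprabasal-like cells by 2.25. For Col17a1 these differences were 1.15 and 1.21. For Dst the matrix-like log2 ratio exceeded that of basal-like cells by 1.12, that of suprabasal-like cells by 0.96 and that of outer root sheath-like cells by 0.57. For Lamb3 it exceeded that of basal-like cells by 0.94. The basal keratin genes Krt14 and Krt5 were also higher in Gli2_EKO matrix-like cells, with log2 ratios of 1.57 and 0.89, and their part in these differences was not tested.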

How the results depend on the processing

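No paired analysis was possible because each genotype is 1 library and the labels give no replicate numbers. With 1 library per genotype, depth narrows only the counting error and the spread between mice is unknown. In all 12 alternatives the same count of genes, 7 of the 8, was at least 2-fold lower in suprabasal-like than in basal-like cells in both libraries, and all 8 were lower in Gli2_EKO than in control basal-like cells, with Dst lowest in each at log2 ratios of -0.69 to -0.76. The alternative without a UMI minimum could not change these values, since all 8 genes passed the minimum. The count of genes past 2-fold in outer root sheath-like cells, 5 in each library, was 2 in Gli2_EKO and 4 in the control with no genes left out of the variable genes, and 3 in Gli2_EKO and 5 in the control without the stress-led cluster 11. Cluster borders in some alternatives also moved with the settings of the numerical library, which were fixed here. The count beyond 0.5 between the libraries went in suprabasal-like cells from 1 to 2 without doublet removal and to 0 with the automatic doublet threshold, at resolution 0.8 and with scaling to the median of ratios. Over all keratinocytes the median log2 ratio of the 8 genes was -0.02, 0.10 with scaling to the median of ratios, which moved Lama3 from -0.11 to 0.021, and -0.23 with clusters weighted to control shares, which moved Lamb3 to -0.14, Col17a1 to -0.22 and Col7a1 to -0.24. The mean share of control basal-like cells with a UMI of a gene was 48.3% at 2000 UMIs, 73.4% at 5000 and 91.2% without thinning, since more UMIs per cell raise it by construction. Apart from the weighting and thinning, the cause was not tested.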
